A study of Mus musculus with 2 samples.

Results

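The genes described here are 9 interferon-stimulated genes of the antiviral response, namely Ifit1, Ifit2, Ifit3, Ifit3b, Isg15, Isg20, Rsad2, Usp18 and Cmpk2. They were taken by symbol from the 27998 genes listed in a pair of single-cell RNA libraries, and all 9 were found in both. The libraries hold mononuclear phagocytes sorted as MerTk+ CD64+ cells from tumors of B16, a mouse melanoma line that grows in C57Bl/6 hosts. The hosts of 1 library were Fcmr+/+ C57Bl/6 mice, and those of the other were Fcmr-/- C57Bl/6 mice, which lack the Fc receptor for IgM that Fcmr encodes. No other allele or agent is given for either group. How many mice stand behind a library is not given in the sources used here, so each library was taken as 1 sample. The question that the design asks is how tumor mononuclear phagocytes differ with the loss of Fcmr.

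These genes are switched on when a cell senses interferon. Type I interferons such as interferon beta act through the receptor chains Ifnar1 and Ifnar2 and the kinases Jak1 and Tyk2 to activate a transcription factor complex that includes Stat2 and Irf9. The complex binds a short DNA element, the interferon-stimulated response element, near the start of its target genes. The Ifit proteins bind foreign RNA and hold back its translation. Isg15 is a ubiquitin-like protein that is attached to other proteins, and Usp18 takes it off again and also damps the type I interferon receptor. Rsad2, also called viperin, makes a nucleotide that ends viral RNA chains, Cmpk2 is a mitochondrial nucleotide kinase, and Isg20 is an RNA exonuclease.

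The Ifit genes lie side by side on chromosome 19 of GRCm38, within a stretch of 99.3 kb that also holds Ifit1bl1 and Ifit1bl2. Ifit2 (ENSMUSG00000045932) spans chr19:34550694-34576419, Ifit3 (ENSMUSG00000074896) chr19:34583531-34588731, Ifit3b (ENSMUSG00000062488) chr19:34607970-34613401 and Ifit1 (ENSMUSG00000034459) chr19:34640871-34650009, all on the plus strand. Rsad2 (ENSMUSG00000020641, chr12:26442746-26456452, minus strand) and Cmpk2 (ENSMUSG00000020638, chr12:26469204-26479837, plus strand) are neighbors that point away from each other with 12751 bases between them. Isg15 (ENSMUSG00000035692) lies at chr4:156199424-156200818 on the minus strand, Isg20 (ENSMUSG00000039236) at chr7:78913424-78920396 on the plus strand and Usp18 (ENSMUSG00000030107) at chr6:121245906-121270917 on the plus strand. All are annotated as protein-coding, and Usp18 alone overlaps another gene, the long noncoding RNA Gm44148 on the opposite strand.

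The sequence before the gene start is shown because it carries the element through which these genes are known to be switched on together. The 250 bases upstream of each annotated start, from RefSeq on GRCm38.p6, were searched on both strands for GAAANNGAAA, the core of the interferon-stimulated response element, and overlapping matches were counted separately. Of the 9 genes, 8 had an entry, and 5 of the 8 held at least 1 match, beside 3.46% of the 27025 genes in the table. Each stretch below is 80 bases long, is read 5′ to 3′ on the strand of its gene and has the matches in capitals. Where the match is on the opposite strand it reads as TTTCNNTTTC.
Ifit1: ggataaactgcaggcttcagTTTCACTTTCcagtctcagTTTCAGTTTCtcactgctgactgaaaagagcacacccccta
Ifit3: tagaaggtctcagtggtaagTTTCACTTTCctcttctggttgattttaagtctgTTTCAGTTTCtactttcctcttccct
Ifit3b: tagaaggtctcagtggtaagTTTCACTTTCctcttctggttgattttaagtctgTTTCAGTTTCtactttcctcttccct
Isg15: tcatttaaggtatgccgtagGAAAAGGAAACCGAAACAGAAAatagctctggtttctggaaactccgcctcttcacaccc
Rsad2: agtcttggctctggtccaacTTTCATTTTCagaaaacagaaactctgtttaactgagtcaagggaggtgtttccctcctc

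The stretches lie at chr19:34640765-34640844 (Ifit1), chr19:34583353-34583432 (Ifit3), chr19:34607749-34607828 (Ifit3b), chr4:156200837-156200916 (Isg15, minus strand) and chr12:26456513-26456592 (Rsad2, minus strand). Ifit1, Ifit3 and Ifit3b each held 2 matches with the same letters, and the stretches of Ifit3 and Ifit3b were identical at 80 of 80 bases. The 3 matches of Isg15 overlapped each other and lay 57 to 78 bases before the start. No match was found in the window of Ifit2, Isg20 or Cmpk2, which says only that these letters are not there. Among other genes, 38.2% of 34 type I interferon-stimulated genes and 52.9% of 17 genes induced mainly by interferon gamma held a match. Ifit3 and Ifit3b are also close copies as transcripts. Of the words of 50 bases in Ifit3b, 44.5% also occur in Ifit3, although 0 do in its last 500 bases, whereas 14.9% of those in the last 500 bases of Ifit3 occur in Ifit3b. The reads come from the 3′ end, where less is shared, so their split is uncertain only for reads within a shared stretch. How many such reads there are is not known, and the sum of Ifit3 and Ifit3b is given below.

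The files hold counts of unique molecular identifiers (UMIs), each standing for 1 captured RNA molecule, read from the 3′ end. After the filters of the study 6352 Fcmr+/+ cells with 128408544 UMIs and 7999 Fcmr-/- cells with 124630621 UMIs were kept, at medians of 17974 and 12911 UMIs a cell. The barcodes of 73 cells occurred in both libraries. The deleted gene cannot serve as a check of the labels, since Fcmr had 7 UMIs in the Fcmr+/+ library and 6 in the Fcmr-/- library. The sort markers were present in both, Mertk at 62.8 CPM (UMIs per 1000000 UMIs of the library) in Fcmr+/+ and 48.7 CPM in Fcmr-/- cells and Fcgr1, which encodes CD64, at 250.4 and 394 CPM. Markers of T and NK cells, summed over the 13 listed genes, were at 4.81 CPM in Fcmr+/+ and 22.3 CPM in Fcmr-/- cells, with Ncr1 at 0 in the former. Intervals are exact 95% intervals that cover counting error only, and since each genotype has a single library, variation among mice is not known and no test was made.

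Over all cells, 8 of the 9 genes stood higher in the Fcmr-/- library and 1, Ifit1, stood lower. A gene was counted as higher when its CPM was at least 1.5-fold higher and its counting interval lay above 1. By that rule 4 of the 9 were higher and 0 lower, while 2.64% of the 8701 genes with at least 5 CPM in a library were higher and 2.17% lower. Of the 4, Ifit3b had 3.84 CPM in Fcmr+/+ and 6.33 CPM in Fcmr-/- cells. It thus reached 5 CPM only in the library where it was higher. The median log2 ratio of the 9 genes was 0.57 beside 0.0023 over all 8701. At a limit of 2-fold 0 of the 9 and 0.988% of all genes remained.

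The genes that passed the limit were Isg15, Usp18, Cmpk2 and Ifit3b. Isg15 had 150.45 CPM in Fcmr+/+ and 275.1 CPM in Fcmr-/- cells, which puts its log2 ratio at 0.87 (interval 0.85 to 0.90). Usp18, which removes Isg15 from its targets, had 14.2 and 25.2 CPM, a log2 ratio of 0.83 (interval 0.75 to 0.91). Cmpk2 had 14.5 and 24.9 CPM, a log2 ratio of 0.78 (interval 0.70 to 0.86). Ifit3b, the copy of Ifit3, had 3.84 and 6.33 CPM, a log2 ratio of 0.72 (interval 0.56 to 0.89). With cells thinned to 6403 UMIs, and those with fewer left out, Ifit3b was at 0.51, below the limit. Isg15, Usp18 and Cmpk2 stayed past it, at 0.73, 0.81 and 0.74.

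Below the limit but with intervals above 0 stood Isg20, Ifit3, Rsad2 and Ifit2. The share of all genes with such intervals was not taken. Isg20 had 7.97 CPM in Fcmr+/+ and 11.8 CPM in Fcmr-/- cells (log2 ratio 0.57, interval 0.46 to 0.69). Ifit3 had 30.3 and 44.0 CPM (log2 ratio 0.54, interval 0.48 to 0.60), and Ifit3 and Ifit3b summed gave 0.56. Rsad2 had 173.7 and 246.4 CPM (log2 ratio 0.50, interval 0.48 to 0.53). Ifit2, a neighbor of Ifit3, had 30.6 and 41.0 CPM (log2 ratio 0.42, interval 0.36 to 0.48).

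The 2 relatives in the Ifit cluster were below 5 CPM, with Ifit1bl1 at 1.52 and 4.45 CPM and Ifit1bl2 at 0.125 and 0.169 CPM.

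Ifit1 went the other way, with 74.8 CPM in Fcmr+/+ and 67.4 CPM in Fcmr-/- cells. Its log2 ratio was -0.15 (interval -0.19 to -0.11), so that the counting intervals of the libraries did not overlap. Counting intervals are narrow at these totals, and those of housekeeping genes could also exclude 0. Rplp0 was at -0.11 (interval -0.12 to -0.10) and Tmsb4x at 0.047 (interval 0.045 to 0.050). The share of all genes with such intervals was not taken. Set against Isg15 within each library, there were 0.497 UMIs of Ifit1 per UMI of Isg15 in Fcmr+/+ cells and 0.245 in Fcmr-/- cells, a ratio of 0.493 (interval 0.476 to 0.510).

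**Figure D1:**
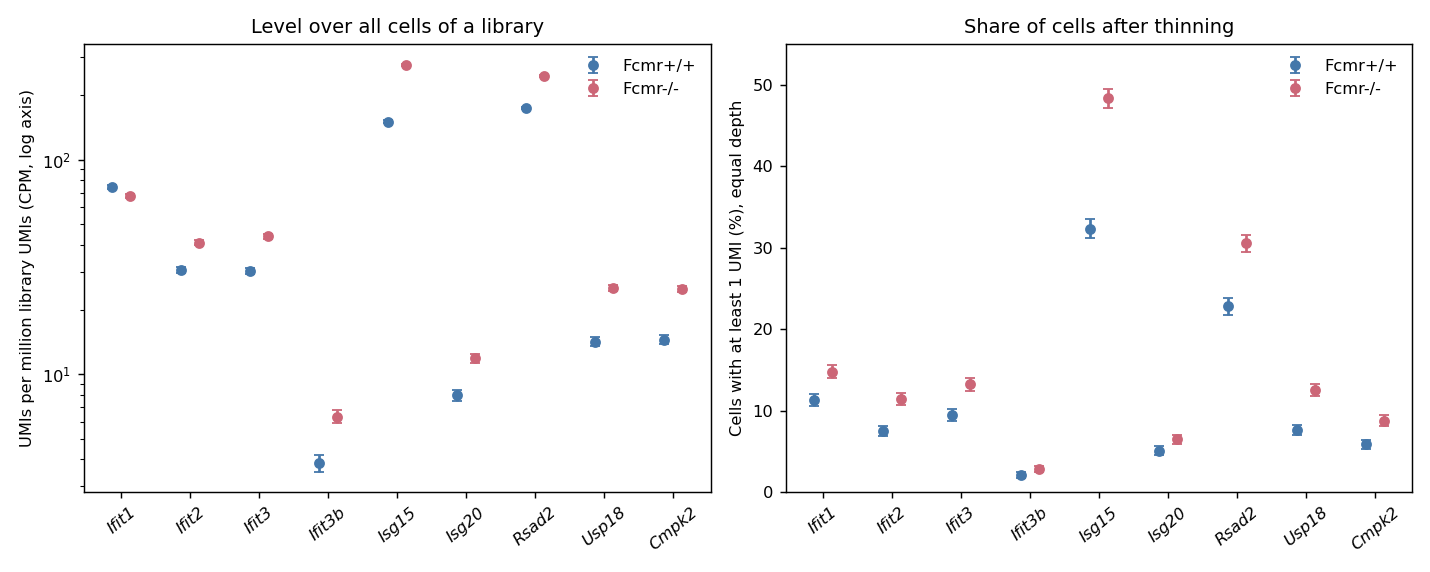
Left, level of each gene in each library in CPM on a log axis. Right, percent of cells with at least 1 UMI after thinning to the same number of UMIs, without the cells that had fewer. Points are library values and bars exact 95% counting intervals. Ifit1 is the only gene whose Fcmr-/- level lies below the Fcmr+/+ level on the left, at 67.4 against 74.8 CPM, while on the right its share is higher, at 14.8% against 11.3%.

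The share of cells in which a gene was seen gave another picture of Ifit1. Since the libraries differ in depth, each cell was thinned to 6403 UMIs, and 72 Fcmr+/+ and 645 Fcmr-/- cells with fewer were left out. At this depth all 9 genes were seen in a larger share of Fcmr-/- cells. Ifit1 had a UMI in 11.3% of Fcmr+/+ cells (interval 10.5 to 12.1) and in 14.8% of Fcmr-/- cells (interval 13.96 to 15.6). Without thinning these shares were 20.1% and 23.8%. The cells that held Ifit1 held less of it, with 5.51 UMIs per positive Fcmr+/+ cell and 3.35 per positive Fcmr-/- cell after thinning.

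For Isg15 both measures were higher in Fcmr-/- cells. It was seen in 32.3% (interval 31.2 to 33.5) of thinned Fcmr+/+ cells and in 48.3% (interval 47.2 to 49.5) of Fcmr-/- cells, with 3.77 and 4.17 UMIs per positive cell. Rsad2 was seen in 22.8% and 30.5% of cells, Usp18 in 7.61% and 12.5% and Cmpk2 in 5.84% and 8.77%. The smallest gains in share were those of Isg20, from 5.06% (interval 4.53 to 5.64) to 6.47% (interval 5.92 to 7.06), and of Ifit3b, from 2.07% (interval 1.73 to 2.45) to 2.84% (interval 2.47 to 3.25). Unthinned, these shares were 51.6% and 63.2% for Isg15, 36.6% and 44.2% for Rsad2, 17.0% and 22.6% for Usp18, 12.04% and 15.6% for Cmpk2, 11.4% and 11.95% for Isg20 and 4.20% and 5.26% for Ifit3b. The libraries hold no cell type known to lack these genes, so no share from such a type could be set beside them as background.

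Cells with several of the genes were more frequent in the Fcmr-/- library. UMIs of at least 3 of the 9 genes were found in 12.1% of thinned Fcmr+/+ cells (760 of 6280, interval 11.3 to 12.9) and in 19.9% of Fcmr-/- cells (1464 of 7354, interval 19 to 20.8). At least 6 of the 9 were found in 3.17% (interval 2.75 to 3.63) and 4.73% (interval 4.26 to 5.24). None of the genes was seen in 49.97% of Fcmr+/+ and 34.7% of Fcmr-/- cells at this depth.

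**Figure D2:**
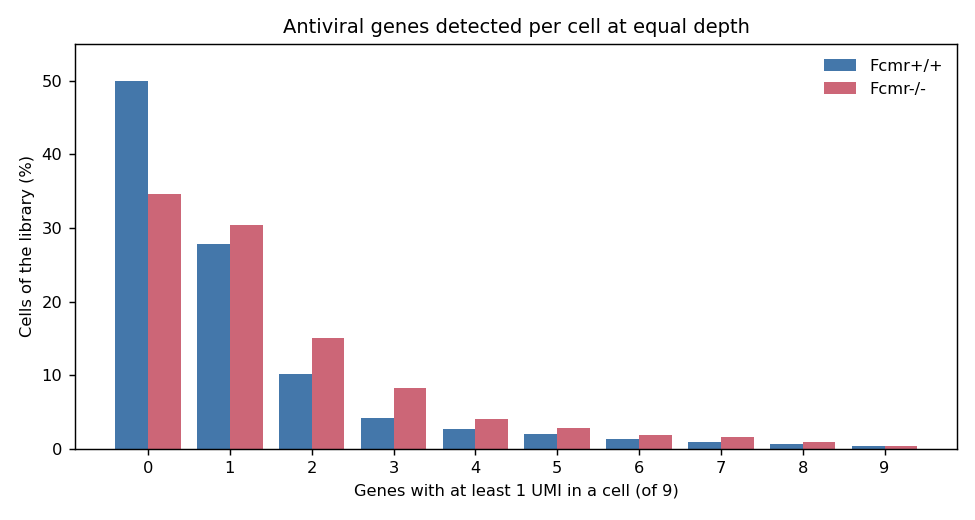
Percent of cells of each library (vertical axis) by the number of the 9 genes with at least 1 UMI (horizontal axis). Cells were thinned to 6403 UMIs, and those with fewer were left out. The Fcmr+/+ bar is taller only at 0 genes, 49.97% against 34.7%, and the Fcmr-/- bars are taller at every number from 1 to 9.

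A small part of the cells held much of each gene. In Fcmr+/+ the 64 cells with most Ifit1, 1% of the library, held 43.6% of its UMIs, and in Fcmr-/- the top 80 cells, again 1%, held 34.6%. The same share for Ifit2 was 42.5% and 33.01% and for Rsad2 36.2% and 28.6%. Isg15 was spread more evenly, with 21.6% and 13.8%, and Usp18 with 19.8% and 16.8%. For all of these genes the top cells held less of the total in the Fcmr-/- library, whereas for Isg20 they held 26.3% and 26.8%.

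To see the genes by macrophage state, cells of both libraries were clustered together without the interferon genes. Of 1339 variable genes, 101 interferon genes were left out, among them all 9 genes described here, and 10 clusters resulted. The clusters are named by number and leading genes. Cluster 1 (2205 cells) was led by Ccl17, Il1r2 and Retnla, cluster 2 (1858 cells) by Tfrc, Cnrip1 and Gas6, and cluster 3 (1706 cells) by Hbb-bs, Ifnb1 and Nos2. Cluster 4 (1636 cells) was led by Upp1, Ly6c2 and Irg1, and cluster 5 (1562 cells) by the mitotic genes Cenpf, Nusap1 and Pbk. Cluster 6 (1529 cells) was led by Cxcl3, Ppbp and Areg, cluster 7 (1373 cells) by Iigp1, Cxcl9 and Serpina3g, cluster 8 (1020 cells) by Fbxo32, Acp5 and Ddit4, cluster 9 (903 cells) by Mfge8, Plpp3 and Npy and cluster 10 (559 cells) by Adm, Cdk18 and Pdgfa.

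A pair of clusters came almost wholly from the Fcmr-/- library. Cluster 4 held 1568 Fcmr-/- and 68 Fcmr+/+ cells and cluster 7 held 1282 and 91, so Fcmr-/- shares were 95.8% and 93.4%. With 1 library per genotype, such a cluster may be the library rather than a cell state. Cluster 9 was 80.2% Fcmr-/- and the other 7 lay between 28.0% and 55.3%. Cluster 3 had the lowest depth, with medians of 10156 UMIs per Fcmr+/+ and 7696 per Fcmr-/- cell, and was led by a hemoglobin gene. Thinning to 6403 UMIs kept 734 of its 762 Fcmr+/+ cells and 685 of its 944 Fcmr-/- cells. The part of this unequal loss in the thinned values was not tested.

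The 9 genes had their highest levels in clusters 3 and 4 in both libraries. Ifit1 was highest in cluster 3, at 390 CPM in Fcmr+/+ and 243 CPM in Fcmr-/- cells, followed by cluster 4 at 266 and 130.3 CPM. These intervals did not overlap within either library, but they cover counting error and not the spread among cells. In the cluster 3 cells without an Ifnb1 UMI, Ifit1 was at 230 CPM in Fcmr+/+ and 164 CPM in Fcmr-/-. The Fcmr+/+ value is below that of all cluster 4 cells and the Fcmr-/- value above it, so this order rests in part on few cells. Isg15 was highest in cluster 4, at 997 and 650 CPM, ahead of cluster 3 at 480 and 449 CPM. Rsad2 was highest in cluster 4 among Fcmr+/+ cells (1168 CPM, beside 828 CPM in cluster 3) and in cluster 3 among Fcmr-/- cells (823 CPM, beside 586 CPM in cluster 4). For Ifit2 in Fcmr+/+ cells, and for Ifit3, Ifit3b, Isg20, Usp18 and Cmpk2 in Fcmr-/- cells, the intervals of the top clusters overlapped, so their order is not resolved.

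The lowest levels were found in clusters 2, 5, 6 and 9, depending on the gene. From the lowest to the highest of the 20 groups of library and cluster, Ifit1 ranged from 11.7 to 390 CPM, Isg15 from 51.5 to 997 CPM, Rsad2 from 39.3 to 1168 CPM and Usp18 from 4.55 to 73.7 CPM. In cluster 9, Ifit1 was at 11.7 CPM in Fcmr+/+ and 13.1 CPM in Fcmr-/- cells, with intervals that overlapped.

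**Figure D3:**
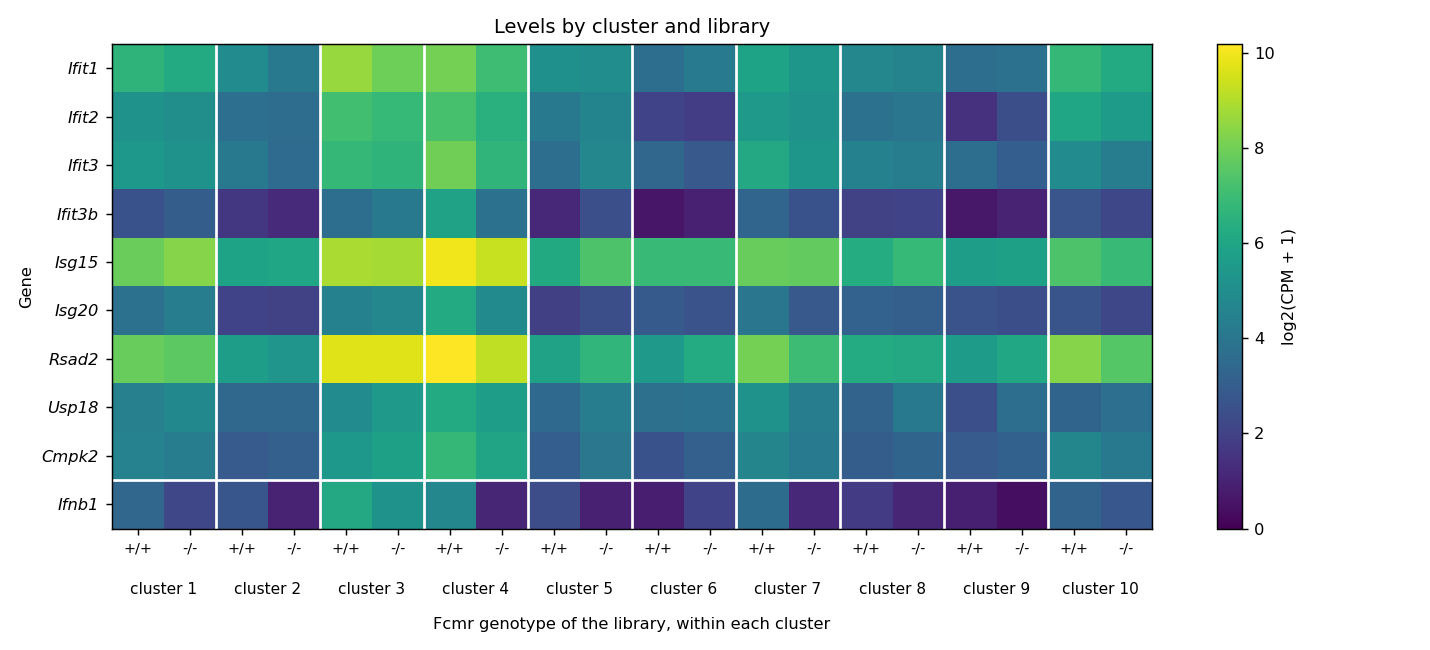
Levels of the 9 genes and of Ifnb1 (rows) in each cluster and library (columns, Fcmr+/+ left and Fcmr-/- right within a cluster), as log2(CPM + 1) in color. The brightest columns are those of clusters 3 and 4, where Ifit1 reached 390 and 266 CPM in Fcmr+/+ cells, and Ifnb1 is brightest in cluster 3.

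The place where each library held its UMIs differed with these clusters. In Fcmr+/+ cells cluster 3 held 37.7% of all Ifit1 UMIs, 34.4% of Rsad2, 32.5% of Ifit2, 26.1% of Ifit3, 23.0% of Isg15, 22.1% of Ifit3b, 20.9% of Cmpk2, 19.1% of Isg20 and 14.7% of Usp18. Cluster 1 of Fcmr+/+ held more than cluster 3 of Isg20 (32.6%), Isg15 (30.7%), Cmpk2 (30.3%), Usp18 (28.8%), Ifit3 (27.6%) and Ifit3b (25.4%). It held less of Ifit1 (25.8%), Rsad2 (25.6%) and Ifit2 (23.5%). In Fcmr-/- cells cluster 3 held between 11.4% (Isg15) and 25.1% (Ifit1) of the UMIs of each gene. In Fcmr-/- cells cluster 4 held between 35.0% (Ifit1) and 43.6% (Cmpk2) of the UMIs of each gene, against 2.71% (Ifit1) to 11.6% (Ifit3b) in Fcmr+/+ cells. Cluster 4 held 19.6% of Fcmr-/- and 1.07% of Fcmr+/+ cells, and within it the levels were lower in Fcmr-/- cells, as with Isg15 at 650 against 997 CPM.

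Compared within clusters, the difference between the libraries took both directions. In cluster 4 the direction of the whole library was turned around, with 8 of the 9 genes at least 1.5-fold lower in Fcmr-/- cells, beside 4.53% of all genes. Ifit3b was lowest, at 58.3 CPM in Fcmr+/+ and 12.8 CPM in Fcmr-/- cells (log2 ratio -2.19, interval -2.60 to -1.75). Usp18 alone missed the limit, at 73.7 and 50.9 CPM (log2 ratio -0.53, interval -0.88 to -0.17). The Fcmr+/+ side of this comparison rests on 68 cells. Summed neutrophil markers were at 48.1 and 162.9 CPM in this cluster, melanoma markers at 69.6 and 111.6 CPM and T and NK markers at 1.02 and 5.69 CPM, and their part was not tested.

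Cluster 7 was similar, with 5 of the 9 genes lower, beside 3.07% of all genes, and 91 cells on the Fcmr+/+ side. These were Ifit3, Ifit3b, Isg20, Rsad2 and Usp18. Rsad2 had 264 CPM in Fcmr+/+ and 127.3 CPM in Fcmr-/- cells (log2 ratio -1.05, interval -1.19 to -0.91). Isg15 had 228 and 214 CPM, a log2 ratio of -0.09 whose interval, -0.24 to 0.05, included 0.

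Cluster 5, the dividing cells, went with the whole library. There 7 of the 9 genes were at least 1.5-fold higher in Fcmr-/- cells, beside 3.12% of all genes, on 785 Fcmr+/+ and 777 Fcmr-/- cells. Isg15 had 72.9 and 160.5 CPM (log2 ratio 1.14, interval 1.05 to 1.22) and Ifit3 had 11.7 and 25.2 CPM (log2 ratio 1.11, interval 0.89 to 1.32). Ifit2 was at a log2 ratio of 0.51 (interval 0.31 to 0.71). Ifit1 was at 33.7 and 30.5 CPM (log2 ratio -0.14, interval -0.30 to 0.01), the only gene of the 9 below 0 there, though its interval included 0. Without the 19 Fcmr+/+ and 6 Fcmr-/- cells of this cluster with an Ifnb1 UMI, Ifit1 was at 0.46 and Isg20 at 0.52.

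T and NK cell markers were also higher in Fcmr-/- cells of cluster 5, at a summed 7.13 CPM in Fcmr+/+ and 74.3 CPM in Fcmr-/- cells. Ifng had 0 and 37 UMIs there. When the 7 Fcmr+/+ and 23 Fcmr-/- cells of cluster 5 with a UMI of a T or NK marker (Cd4 and Klrd1 not counted) were left out, Isg15 kept a log2 ratio of 1.17 (interval 1.08 to 1.25) and Ifit3 of 1.15 (interval 0.93 to 1.37). Ifit2 then passed the limit at 0.66 and Isg20 fell below it at 0.54, and the other calls of this cluster did not change.

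In the remaining clusters few of the genes passed the limit. In cluster 3, where the genes are among their highest, Ifit1 was lower (390 and 243 CPM, log2 ratio -0.68, interval -0.76 to -0.61), beside 2.52% of all genes, and Usp18 was higher (28.8 and 43.9 CPM, log2 ratio 0.61, interval 0.38 to 0.84), beside 8.15% of all genes. Rsad2 hardly differed there, at 828 and 823 CPM (log2 ratio -0.01, interval -0.06 to 0.04). Markers of other cells were also higher in Fcmr-/- cells of this cluster, with summed levels of 89.3 and 284 CPM for neutrophils, 108.2 and 245 CPM for melanoma, 13.6 and 32.5 CPM for stroma and 2.37 and 10.02 CPM for T and NK cells. Their part in the result was not tested.

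Cluster 6 had 3 genes higher (Ifit1, Rsad2 and Cmpk2, beside 2.68% of all genes) and 1 lower (Ifit3, beside 3.18%). Cluster 10 had 3 lower (Ifit3, Rsad2 and Cmpk2, beside 2.57%), and cluster 2 had 1 lower (Ifit1, at 29.5 and 16.3 CPM, beside 1.69%). Cluster 8 had 1 higher (Usp18, beside 6.88%), and cluster 9 had 2 higher (Ifit2 and Usp18, beside 5.93%) and 1 lower (Ifit3, beside 2.86%). Cluster 1 had 0 in either direction. Some of these counts were small, with 6 and 44 UMIs of Ifit2 in Fcmr+/+ and Fcmr-/- cells of cluster 9.

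By gene, Usp18 was the one most often higher, in clusters 3, 5, 8 and 9, beside 8.15%, 3.12%, 6.88% and 5.93% of all genes. Its ratio was above 1 in 8 of 10 clusters, with 16 Fcmr+/+ UMIs in cluster 9. Ifit3 was the one most often lower, in clusters 4, 6, 7, 9 and 10, beside 4.53%, 3.18%, 3.07%, 2.86% and 2.57% of all genes. It was higher in cluster 5 only. Ifit1 was higher in cluster 6, beside 2.68% of all genes, and lower in clusters 2, 3 and 4, beside 1.69%, 2.52% and 4.53%. The ratio of Ifit1 was above 1 in 2 of 10 clusters. Its calls in clusters 2, 3 and 6 were lost without the cells that held an Ifnb1 UMI. In the same setting its log2 ratio went further below 0, past 1.5-fold, in cluster 7 (-0.49 to -0.68) and cluster 10 (-0.53 to -0.95). It rose above 0 in cluster 5 (-0.14 to 0.46) and cluster 8 (-0.16 to 1.04).

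**Figure D4:**
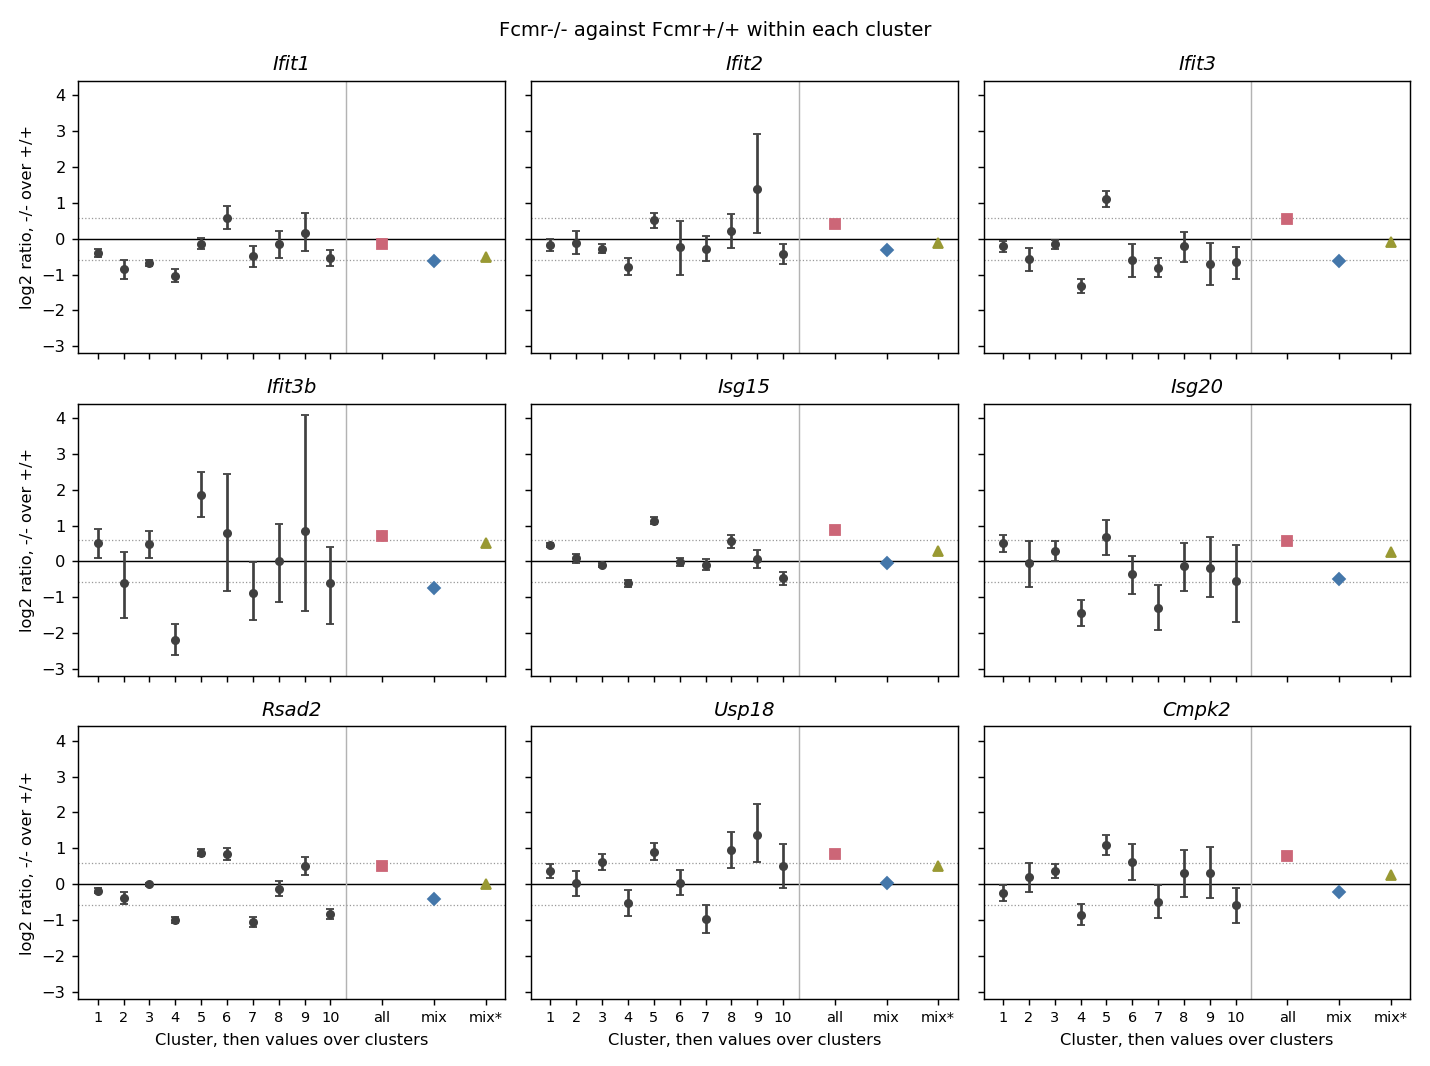
Log2 ratio of Fcmr-/- over Fcmr+/+ CPM (vertical axis) for each gene within clusters 1 to 10 (black, with exact 95% counting intervals), over all cells (red square), at a common mix of the clusters (blue diamond) and at that mix without clusters 4 and 7 (mix*, olive triangle). Dotted lines mark 1.5-fold. All 9 black points of cluster 4 lie below 0, those of cluster 5 lie above 0 except for Ifit1, and the red and blue marks lie on opposite sides of 0 for 7 of the 9 genes.

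To compare the libraries at the same mix of states, the level of each cluster was weighted by the average of its UMI shares in both libraries. At this common mix 0 of the 9 genes were at least 1.5-fold higher (1.24% of all genes) and 3 were lower (0.873% of all genes), namely Ifit1, Ifit3 and Ifit3b. The median log2 ratio was -0.43, beside 0.024 over all genes. Isg15 went from 0.87 over all cells to -0.05, Rsad2 from 0.50 to -0.43, and Usp18, the only gene still above 0, from 0.83 to 0.02. These values at the common mix rest on the 68 and 91 Fcmr+/+ cells of clusters 4 and 7. Both clusters were also high in interferon genes that had been left out of the clustering. Gbp4 stood 4.82-fold above the other cells in cluster 4, and Iigp1 7.17-fold in cluster 7. Weighting by cluster can thus take out part of a difference in interferon genes, and how much was not tested. With those clusters left out of the mix, the median was 0.25. Usp18 was then at 0.52, Ifit3b at 0.51, Isg15 at 0.29, Isg20 at 0.25, Cmpk2 at 0.25 and Rsad2 at 0.0015. Below 0 were Ifit3 at -0.085, Ifit2 at -0.11 and Ifit1 at -0.50. Without clusters 4 and 7 and with no weighting, 0 of the 9 genes passed the limit, beside 2.07% of all genes, at a median log2 ratio of 0.33. Ifit1 stood below 0 in each of these 4 ways of taking the ratio, and Ifit2 in all of them except over all cells.

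Among the interferon genes themselves only Ifnb1, which encodes interferon beta, reached 5 CPM. Fcmr+/+ cells held 10.3 CPM of it (interval 9.76 to 10.9) and Fcmr-/- cells 3.97 CPM (interval 3.63 to 4.34), a log2 ratio of -1.38, so it was lower where 8 of the 9 genes were higher. It was found in 176 Fcmr+/+ cells, 2.77% of the library (interval 2.38 to 3.20), and in 89 Fcmr-/- cells, 1.11% (interval 0.894 to 1.37). Of its UMIs, 48.5% in Fcmr+/+ and 62.6% in Fcmr-/- lay in cluster 3, where it had 69.3 CPM (interval 64.0 to 74.9) and 35.7 CPM (interval 31.8 to 39.9). It was lower in Fcmr-/- cells of clusters 1, 2, 3, 4, 5 and 7, and higher in those of cluster 6 (0.829 and 3.12 CPM). Some of these levels rest on few cells with a UMI. There were 2 in Fcmr+/+ cluster 4, 5 in Fcmr+/+ cluster 7 and 2 in Fcmr-/- cluster 2. Cluster 6 had 9 in Fcmr+/+ and 10 in Fcmr-/-, with 11 and 31 UMIs.

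Cells with an Ifnb1 UMI were rich in the antiviral genes. Within cluster 3 of Fcmr+/+, Ifit1 had 2736 CPM in the 45 cells with an Ifnb1 UMI and 230 CPM in the 717 without, an 11.9-fold difference. In Fcmr-/- these levels were 2836 CPM in 29 cells and 164 CPM in 915, a 17.3-fold difference. Ifit2 differed 9.70-fold in Fcmr+/+ and 17.9-fold in Fcmr-/-, Isg15 6.76-fold and 6.50-fold and Rsad2 5.20-fold and 5.81-fold. The difference was smallest for Isg20, at 1.67-fold and 3.08-fold, and for Usp18, at 2.07-fold and 3.22-fold. The Ifnb1 cells of this cluster were not the deeper ones, with medians of 9017 UMIs in Fcmr+/+ and 7056 in Fcmr-/-, against 10186 and 7707 in the others. In Fcmr+/+ the interval for Isg20 included no difference.

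These few cells carried much of Ifit1. The 176 Fcmr+/+ cells with an Ifnb1 UMI, over all clusters, held 3.07% of all UMIs of the library and 39.2% of those of Ifit1, 32.8% of Ifit2 and 22.8% of Rsad2. They held 6.15% of Usp18 and 5.28% of Isg20. The 89 Fcmr-/- cells held 1.13% of all UMIs, 18.3% of Ifit1 and 3.53% of Usp18.

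With the Ifnb1 cells left out, which was decided after seeing the data, all 9 genes were higher in the Fcmr-/- library. Ifit1 had 46.9 CPM in Fcmr+/+ and 55.6 CPM in Fcmr-/- cells, and its log2 ratio changed sign from -0.15 to 0.25 (interval 0.20 to 0.30). This change follows from the shares above, since the cells left out held 39.2% of Ifit1 UMIs in Fcmr+/+ and 18.3% in Fcmr-/-. It is therefore not a separate result. The cells were picked by unthinned Ifnb1 UMIs, and the Fcmr+/+ library is the deeper one. Ifit2 went from 0.42 to 0.73, Rsad2 from 0.50 to 0.72, Ifit3 from 0.54 to 0.67 and Isg15 from 0.87 to 1.04, while Usp18 went from 0.83 to 0.84 and Isg20 was at 0.57 both ways. By the limit of 1.5-fold 7 of the 9 genes were then higher, beside 2.73% of all genes, with Ifit1 and Isg20 below it. Within clusters some calls changed when these cells were left out. Cluster 4 kept its lower calls, with Usp18 still short of the limit. In cluster 5 Ifit2 (0.51 to 1.07) moved past the limit and Isg20 (0.67 to 0.52) moved below it. Ifit1 was no longer past the limit in cluster 2 (-0.85 to -0.52), cluster 3 (-0.68 to -0.49) or cluster 6 (0.59 to 0.26). It stood at 0.46 in cluster 5 and went further below 0, past 1.5-fold, in cluster 7 (-0.49 to -0.68) and cluster 10 (-0.53 to -0.95). In cluster 8 the median log2 ratio of the 9 genes went from 0.0063 to 0.42, with Ifit1 going from -0.16 to 1.04. The cells left out there were 6 Fcmr+/+ and 2 Fcmr-/- cells. In cluster 10 the median went from -0.54 to -0.77. Higher genes went from 1 to 4 in cluster 8 and from 0 to 1 in cluster 1, and lower genes from 3 to 6 in cluster 10. No share of all genes was taken for these counts.

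Across single cells the genes were seen together. In thinned cells the Spearman correlation, averaged over the 36 pairs of the 9 genes, was 0.30 in Fcmr+/+ and 0.30 in Fcmr-/- cells, and the average size of the correlation between the genes and a list of housekeeping genes was 0.036 and 0.046. The points are 6280 and 7354 cells, each set from 1 library and at 1 depth. The closest pairs in Fcmr+/+ were Ifit1 with Ifit2 (0.46), Ifit2 with Ifit3 (0.46) and Ifit1 with Rsad2 (0.45). In Fcmr-/- they were Isg15 with Rsad2 (0.42), Ifit1 with Ifit3 (0.42) and Ifit2 with Ifit3 (0.41). Isg20 was the least tied to the rest, with a mean of 0.19 over its 8 pairs in both libraries. Taken within each cluster, the median of the 10 averages was 0.23 in Fcmr+/+ and 0.19 in Fcmr-/-.

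**Figure D5:**
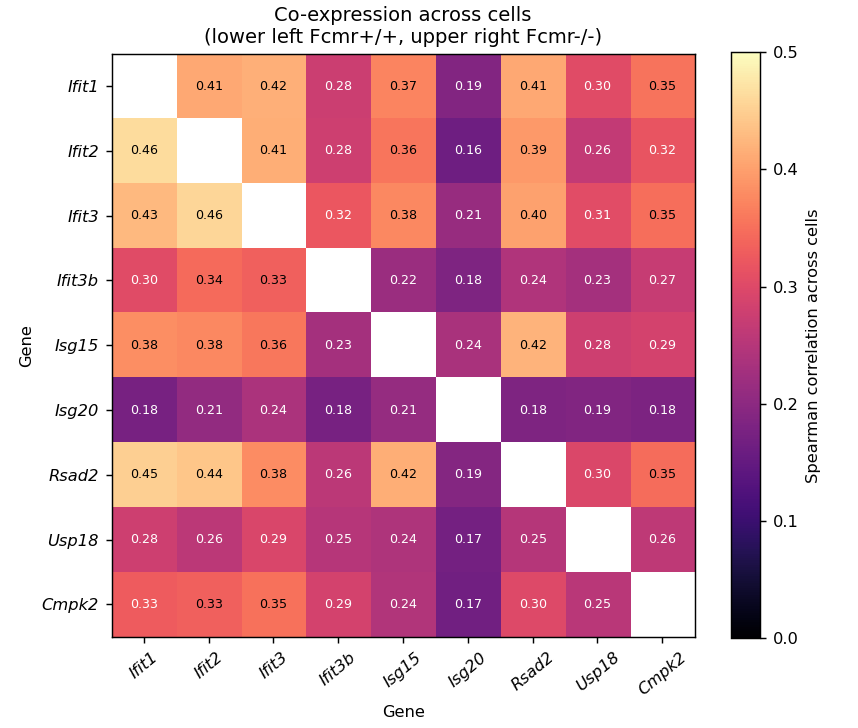
Spearman correlation across thinned cells for each pair of genes, in color and as numbers, with Fcmr+/+ cells below and Fcmr-/- cells above the diagonal. The row and column of Isg20 are darkest in both libraries, and the Ifit1, Ifit2 and Ifit3 block is lightest in Fcmr+/+.

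Ifit1 marked cells with the other genes in both libraries. In Fcmr+/+, Ifit2 was seen in 39.1% of 709 thinned cells with an Ifit1 UMI and in 3.45% of 5571 without. In Fcmr-/- it was seen in 39.9% of 1086 and in 6.45% of 6268. Isg15 was seen in 71.7% and 27.3% of these Fcmr+/+ cells and in 80.9% and 42.7% of the Fcmr-/- cells, so the Fcmr-/- library had more cells with Isg15 and no Ifit1 UMI. Ifnb1 was seen in 11.3% of Ifit1 cells in Fcmr+/+ and in 3.68% in Fcmr-/-. Cxcl9, a chemokine induced mainly by interferon gamma, was seen in 2.40% of Ifit1 cells and 1.42% of the others in Fcmr+/+, and in 23.5% and 18.5% in Fcmr-/-.

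The genes that relay the interferon signal differed in part. The transcription factors Irf7, at 69.7 CPM in Fcmr+/+ and 139.5 CPM in Fcmr-/- cells, and Stat2, at 15.9 and 29.1 CPM, were at least 1.5-fold higher over all cells. At the common mix of clusters neither passed the limit, with log2 ratios of 0.24 for Irf7 and 0.40 for Stat2. Irf9, the DNA-binding partner of Stat2, had 30.4 and 40.7 CPM, and the receptor chains Ifnar1 (94.2 and 107.5 CPM) and Ifnar2 (123.4 and 108.4 CPM) were within the limit. Irf7 was also lower in cluster 4, where 8 of the 9 antiviral genes were lower, but stayed within the limit. Its levels there were 410 CPM in Fcmr+/+ and 281 CPM in Fcmr-/- cells (log2 ratio -0.55, interval -0.69 to -0.40). For Stat2 (log2 ratio 0.04, interval -0.40 to 0.51) and Irf9 (0.26, interval -0.20 to 0.75) the interval in this cluster included 0.

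Of the 4 enzymes that attach Isg15 to proteins, 3 were higher, beside 2.64% of all genes. They were the activating enzyme Uba7 (8.76 and 14.8 CPM), the conjugating enzyme Ube2l6 (23.5 and 35.7 CPM) and the ligase Herc6 (14.6 and 26.6 CPM). Trim25 had 136.4 and 136.9 CPM. At the common mix of clusters none of the 3 passed the limit, with log2 ratios of 0.35 for Uba7, 0.085 for Ube2l6 and 0.26 for Herc6. Of 8 genes of nucleotide and lipid metabolism listed as partners of Rsad2 and Cmpk2, 2 were higher, beside 2.64% of all genes. These were Samhd1, which breaks down nucleotides (136.9 and 231 CPM), and Ch25h, which makes an antiviral oxysterol (6.34 and 15.5 CPM). At the common mix Samhd1 was below the limit, at a log2 ratio of 0.32, and Ch25h was at 1.12. Cmpk1, the cytosolic relative of Cmpk2, had 218 and 226 CPM.

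Set beside other interferon-stimulated genes, the 9 genes lay close to the type I list and below the type II list. Of 43 measured other type I interferon-stimulated genes, 21 were higher and 0 lower, beside 2.64% and 2.17% of all genes. Their median log2 ratio was 0.58, which is near the 0.57 of the 9 genes. The lists were chosen with earlier results of these data known, so their counts are not independent of those results. Mx1 (14.4 and 17.0 CPM) and Ifih1 (30.4 and 34.9 CPM) were among those within the limit, and Zbp1 (47.0 and 127.0 CPM) and Oas3 (16.9 and 35.3 CPM) among those past it. Of 23 measured genes induced mainly by interferon gamma, 23 were higher, beside 2.64% of all genes, at a median of 1.34. Among them Gbp2 was at 21.4 and 138.9 CPM, Cxcl9 at 14.5 and 185.6 CPM and Iigp1 at 3.19 and 72.6 CPM. A gene was measured if it had at least 5 CPM in either library. Gbp4, Gbp5, Gbp8, Iigp1, Irgm2, Ciita, Batf2 and Serpina3g, and Ifi44 of the type I list, reached this only in the Fcmr-/- library. Their direction is thus not independent of the filter. At the common mix of clusters the medians were 0.17 for the type I list, 0.71 for the type II list and -0.43 for the 9 genes. With clusters 4 and 7 left out of the mix, the median of the 9 genes was 0.25. The lists were not taken without these clusters, so the place of the 9 genes among them at a common mix is not settled. Of 9 housekeeping genes 0 passed the limit, at a median of -0.0025.

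Over the 20 groups of library and cluster, the genes whose levels followed the average of the 9 most closely were Herc6 and Ifih1 (Pearson r 0.95 each), Gm4955 (0.94), Ccl5 and Mx1 (0.92 each), Pydc3, Oasl1 and Daxx (0.90 each) and Creb5 and Stat2 (0.89 each). The groups share 2 libraries, so these values describe likeness only. Of the 9, each against the average of the other 8, Cmpk2 (0.97), Ifit3b (0.97) and Ifit3 (0.97) lay closest and Isg20 (0.87), Usp18 (0.88) and Ifit2 (0.89) furthest. The same measure was 0.71 for Ifnb1 and 0.53 for Cxcl9.

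Cells with RNA of other cell types were few for T and NK markers and many for the wider lists. Leaving out cells with a T or NK marker UMI kept 6312 Fcmr+/+ and 7854 Fcmr-/- cells and left the median log2 ratio of the 9 genes at 0.58. Leaving out every cell with a UMI of any T, NK, B, neutrophil, melanoma or stroma marker left 899 Fcmr+/+ and 973 Fcmr-/- cells, since most cells held at least 1 such UMI. Holding none is more likely in a cell of low depth, and the depth and clusters of the cells kept were not compared. In the cells kept, 0 of the 9 genes passed the limit, beside 3.57% of all genes, and the median was -0.033. Macrophage markers, 9 genes summed, were at 16927 and 16936 CPM. The dendritic cell list summed to 338 and 482 CPM. Of this, Bst2 alone, which is also on the type I list, had 326.8 and 464.1 CPM. Neutrophil markers summed to 55.9 and 121.7 CPM (Ngp at 0 in both libraries) and melanoma markers to 79.1 and 109.6 CPM. B cell markers summed to 12.5 and 12.7 CPM and stroma markers to 7.30 and 12.7 CPM (Krt5 and Krt14 at 0 in both). The part of these other cells in the levels of the 9 genes was not tested.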

How the data were processed

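Tumor mononuclear phagocytes were profiled with the 10x Genomics 3′ single-cell assay, 1 library per genotype. The deposited files hold UMI counts per gene and cell, which the authors made with Cell Ranger on GRCm38 (mm10), and the submitters' notes also name Seurat 2.1.0. As in the study, genes seen in at least 3 cells and cells with 200 to 7000 genes and at most 30% mitochondrial UMIs were kept, which removed 33 Fcmr+/+ and 15 Fcmr-/- cells by gene number and 7 and 3 more by mitochondrial share. No doublet caller was run. UMIs were summed over all cells, or over the cells of a cluster, and divided by the summed total to give CPM. Since the reads come from the 3′ end, these levels are not per length and are not ranked between genes.

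Exact Poisson intervals were used for CPM, exact conditional binomial intervals for ratios and Clopper-Pearson intervals for shares, all at 95%. Genes with at least 5 CPM in a library, or in either side of a cluster, formed the background. Clusters came from Seurat 5.3.0 in R 4.3.3 (10 principal components, 30 neighbors, resolution 0.8) and the rest from Python 3.11.15 with numpy 2.4.6, scipy 1.17.1 and pandas 2.3.3. The intervals and ratios were tested on simulated sums drawn as Poisson counts, which is the model that the intervals assume. Clumping of UMIs in few cells was not simulated. The genes described and the lists (interferon ligands and receptor, Isg15 enzymes, type I and type II genes, nucleotide partners, housekeeping genes and markers of other cells) were chosen with earlier results of these data known. A gene of the receptor list is not reported here, so no count is given for that list. Named besides them are the 3 leading genes of each cluster and the 10 genes outside the cell marker lists whose pattern, at 20 CPM or more, was most like theirs. Alternatives varied the scaling, cell filters, thinning, clustering and fold limit. Leaving out T and NK marker cells, Ifnb1 cells or clusters 4 and 7 was added after seeing the data.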

Additional observations from a re-analysis of the deposited data

Results flagged for a closer look

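For every one of the 9 genes there was a cluster in which the Fcmr-/- level was higher and another in which it was lower, with counting intervals on opposite sides of 0. The share of all genes for which this holds was not taken. The gap between these log2 ratios was not tested, since each genotype has 1 library. For Ifit1 it was 1.62, between cluster 6 (0.59) and cluster 4 (-1.03). For Ifit2 it was 2.18, between cluster 9 (1.40) and cluster 4 (-0.78). Between the dividing cells of cluster 5 and cluster 4 the gap was 2.43 for Ifit3 (1.11 and -1.32), 4.04 for Ifit3b (1.85 and -2.19), 1.76 for Isg15 (1.14 and -0.62), 2.11 for Isg20 (0.67 and -1.44) and 1.94 for Cmpk2 (1.09 and -0.85). For Rsad2 it was 1.93, between cluster 5 (0.87) and cluster 7 (-1.05). For Usp18 it was 2.35, between cluster 9 (1.37) and cluster 7 (-0.98). Some of these ratios rest on little, with 6 Fcmr+/+ UMIs of Ifit2 and 16 of Usp18 in cluster 9. The ratio of Ifit1 in cluster 6 was 0.26 without the cells that held an Ifnb1 UMI.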

How the results depend on the processing

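The count of 4 higher genes and the median log2 ratio of 0.57 rest on which cells enter. The count was 0 at a limit of 2-fold, at the common mix of clusters and without clusters 4 and 7. It was also 0 without cells holding a marker UMI of another cell type. It was 3 in thinned cells, where Ifit3b stood at 0.5092 and no share over all genes was taken. It was 7 without cells holding an Ifnb1 UMI. The median was 0.4442 in thinned cells, 0.3303 without clusters 4 and 7, 0.7261 without Ifnb1 cells, -0.0328 without cells holding another cell type's marker and -0.4308 at the common mix. Without those marker cells Ifit2 stood at -0.2717, Ifit3b at -0.2229, Isg20 at -0.0718 and Rsad2 at -0.0328. At the common mix Ifit2 stood at -0.3207, Ifit3 at -0.6245, Ifit3b at -0.7469, Isg15 at -0.0504, Isg20 at -0.4964, Rsad2 at -0.4308 and Cmpk2 at -0.2249. Ifit2 was at -0.027 without clusters 4 and 7, and Ifit1 at 0.2461 without Ifnb1 cells. The median at the common mix was -0.306 at resolution 0.4 and 0.246 without clusters 4 and 7. The causes were not tested. With no CPM filter 4.28% of all genes were at least 1.5-fold higher. Cells with at least 3 of the genes were 14.9% of Fcmr+/+ and 23.8% of Fcmr-/- cells when thinned to 9672 UMIs, and 25.1% and 35.2% without thinning. The mean correlation was 0.3301 in Fcmr+/+ and 0.3383 in Fcmr-/- cells without thinning, and 0.2259 and 0.1919 as the median within clusters. Median-ratio scaling shifted all values by 0.0029 on the log2 scale. Intervals cover counting error only, so differences between mice cannot be told apart from differences between genotypes. No paired analysis was possible because each genotype had 1 library.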
